A study of Mus musculus with 3 samples.

Results

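The genes described here are 40 textbook genes of the cell cycle, 20 of S phase and 20 of G2 phase and mitosis (G2/M), out of the 27998 genes in the deposited tables, and each of the 40 was found there under 1 gene identifier. The rule that picks them uses gene names and no measured values, but the genes were chosen with earlier results of these data known. Single-cell RNA was counted in 3 libraries of mouse dorsal skin, all from male C57BL/6 mice of 7 to 9 weeks with no transgene or drug named in the labels. The first library is non-lesional skin, the second the wound bed 2 days after a full-thickness wound of 1.0 by 0.5 cm made in telogen, the resting phase of the hair cycle, and the third the wound bed at day 7. Skin was minced and digested with collagenase D and DNase, so the cells are those that came through digestion, and how many animals gave cells to a library is not stated. Each group is 1 library, so time, animal and library cannot be told apart, no test between groups is possible, and every interval below is a 95% interval that covers counting error only.

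A cell that divides first licenses its replication origins by loading the MCM2-7 helicase, copies its DNA in S phase, and then condenses and separates its chromosomes in mitosis. S phase genes are switched on by E2F factors once the pocket proteins of the Rb family let go of them, and mitosis genes are switched on later through promoter boxes named CHR and CCAAT, which the MuvB complexes and NF-Y read. Adult dermal fibroblasts are mostly at rest, while basal keratinocytes and hair follicle cells renew the epidermis. After wounding, fibroblasts, vessel cells, keratinocytes and Schwann cells are known to divide again in the wound bed.

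The promoters of the genes are shown first, since the 2 lists differ in these boxes. Whether the boxes relate to the levels below was not tested. RefSeq promoters (GRCm38.p6, from 250 bases before to 50 after the start) were at hand for 34 of the 40 genes, 17 in each list. 2810417H13Rik was matched by its current name, Pclaf, and Gins2, Mcm4, Ccne2, Ccna2, Tpx2 and Aurkb had no entry. The boxes searched on both strands were E2F (TTTCCCGC, TTTCGCGC, TTTGCCGC or TTTGGCGC), CHR (TTTGAA or TTTAAA) and CCAAT, and words that overlap each other were each counted. An E2F word stood in 7 of 17 S phase promoters (41.2%) and in 1 of 17 G2/M promoters (5.88%), against 2.60% of all 27025 genes of the table. A CHR word stood in 15 of 17 G2/M promoters (88.2%) and 7 of 17 S phase promoters (41.2%), against 30.6% of all genes. CCAAT stood in 15 of 17 G2/M promoters (88.2%) and 12 of 17 S phase promoters (70.6%), against 41.1% of all genes. The 5 stretches below run from 160 bases to 1 base before the start, written 5′ to 3′ on the gene's strand, with the boxes in capitals on either strand. They were chosen as 2 helicase genes with E2F words, 2 G2/M genes with the largest differences between skin and wound, and Cdk1, the G2/M gene with an E2F word.
Mcm5 (chr8:75109349-75109508, plus strand): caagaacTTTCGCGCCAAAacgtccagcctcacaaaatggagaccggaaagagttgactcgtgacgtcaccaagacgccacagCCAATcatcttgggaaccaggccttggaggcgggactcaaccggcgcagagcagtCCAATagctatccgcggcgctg
Mcm6 (chr1:128359706-128359865, minus strand): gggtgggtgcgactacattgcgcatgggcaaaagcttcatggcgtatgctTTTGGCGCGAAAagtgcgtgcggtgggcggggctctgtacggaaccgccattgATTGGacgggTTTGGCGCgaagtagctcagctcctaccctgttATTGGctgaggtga
Top2a (chr11:99024190-99024349, minus strand): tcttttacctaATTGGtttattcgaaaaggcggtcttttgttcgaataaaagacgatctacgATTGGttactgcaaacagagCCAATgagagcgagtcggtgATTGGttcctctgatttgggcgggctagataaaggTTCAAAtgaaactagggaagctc
Ube2c (chr2:164769769-164769928, plus strand): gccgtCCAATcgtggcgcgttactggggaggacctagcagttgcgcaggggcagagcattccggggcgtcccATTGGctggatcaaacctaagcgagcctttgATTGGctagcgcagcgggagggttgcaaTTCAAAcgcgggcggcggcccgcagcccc
Cdk1 (chr10:69352913-69353072, minus strand): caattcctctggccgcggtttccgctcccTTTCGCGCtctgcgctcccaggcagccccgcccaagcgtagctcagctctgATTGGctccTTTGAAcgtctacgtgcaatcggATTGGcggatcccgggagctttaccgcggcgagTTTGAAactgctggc
In Mcm5 and Mcm6, E2F words on the 2 strands overlap in 1 block, at -153 and -149 in Mcm5 and at -110 and -106 in Mcm6. In Top2a and Ube2c a CHR word lies just before the start, at -23 and -29, with CCAAT words upstream of it. A match describes the letters only and does not show that a factor binds there.

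The libraries held 10857, 8707 and 7317 barcodes with 102345327 to 138046172 unique molecule counts (UMIs) each. After filters 9354 cells of non-lesional skin (86.2%), 7339 of day 2 (84.3%) and 4714 of day 7 (64.4%) were kept, and 8 to 18 of the kept barcodes were shared by any pair of libraries. The largest loss was at day 7, where 1632 barcodes had over 10% of mitochondrial UMIs. Cells fell into 37 clusters, made without cell cycle genes, of which 32 were named from marker lists as 12 classes, each written as "-like". Fibroblast-like cells held all 10 of their markers in each library, summing to 151002, 32496 and 77666 UMIs per 1000000 (CPM) in non-lesional skin, day 2 and day 7.

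The share of dividing cells among fibroblast-like cells was near 0 in non-lesional skin, highest at day 2 and lower but still raised at day 7. A cell was counted as dividing when, after every cell was thinned to 1000 UMIs, it held UMIs of at least 3 different genes of the 40. By that rule 9 of 6284 fibroblast-like cells were dividing in non-lesional skin, or 0.143% (0.0655 to 0.272%). At day 2 the count was 1282 of 4013 cells, or 31.9% (30.5 to 33.4%). At day 7 it was 327 of 2523 cells, or 13% (11.7 to 14.3%). The intervals of the 3 libraries do not overlap, but they cover counting error only and hold no spread between animals or libraries. The order held under each of the 12 other settings tried, all on the same 3 libraries. Without thinning, the shares would be 14.3%, 89.9% and 72.5%, but the median cell then differed in depth, at 9308, 26130 and 24644 UMIs.

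Neutrophils leave the bone marrow after their last division, so the share called in neutrophil-like cells of the same library was taken as a background. That share was 7 of 809 cells at day 2, or 0.865% (0.349 to 1.77%), and 1 of 111 cells at day 7. Median depths before thinning were 888 and 1168 UMIs in these cells, and 1229 of the 2038 at day 2 were too shallow to be used. Non-lesional skin held only 6 neutrophil-like cells, so no such background was measured there. The summed S phase level in neutrophil-like cells was 243 CPM at day 2, 23.4% of the fibroblast-like level, and 213 CPM at day 7, or 37.1%. For the G2/M genes it was 12.7% at both days, close to the 13% and 15.4% of the fibroblast marker genes. Slbp was at 102 and 104 CPM in neutrophil-like cells at day 2 and day 7, against 64.6 and 52.5 CPM in fibroblast-like cells. The part of free RNA in the neutrophil-like share and in the S phase levels below was not tested.

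**Figure D1:**
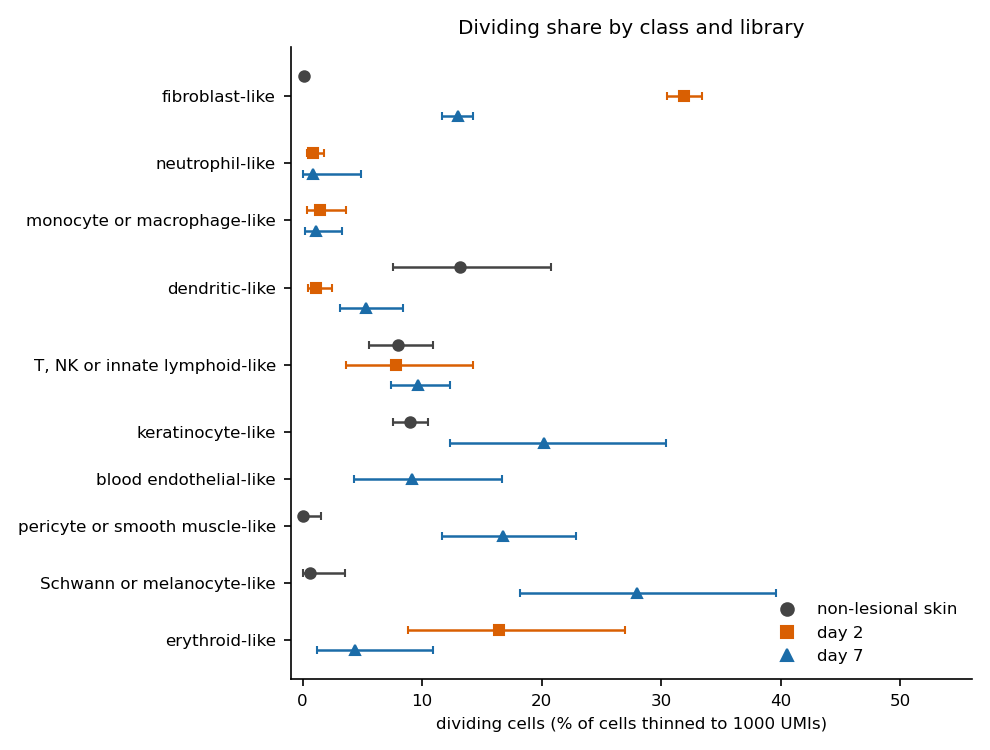
Share of dividing cells (x axis, % of cells thinned to 1000 UMIs) in each class with at least 50 such cells, for non-lesional skin (grey circles), day 2 (orange squares) and day 7 (blue triangles). Bars are 95% Clopper-Pearson intervals; the fibroblast-like share is 0.143%, 31.9% and 13%, while neutrophil-like cells stay at 0.865% and 0.901%.

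Thinning to 1000 UMIs misses many dividing cells, so the deeper cells were also thinned to 10000 UMIs, a setting added after the data had been seen. At that depth fibroblast-like cells of day 2 formed 2 groups, 1 around 2 or 3 different genes of the 40 and 1 around 19. At least 10 different genes were seen in 1941 of 3404 day 2 cells, or 57.0% (55.3 to 58.7%). The share was 22.0% at day 7 (434 of 1974 cells) and 0.390% in non-lesional skin (11 of 2823 cells). Only 44.1% of fibroblast-like cells of non-lesional skin had that depth, against 83.7% at day 2 and 77.1% at day 7. Cells with 5 to 9 genes, between the 2 groups, made up 16.1% at day 2 and 13.2% at day 7. At least 20 genes were seen in 18.4% of day 2 cells and 11.1% of day 7 cells.

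**Figure D2:**
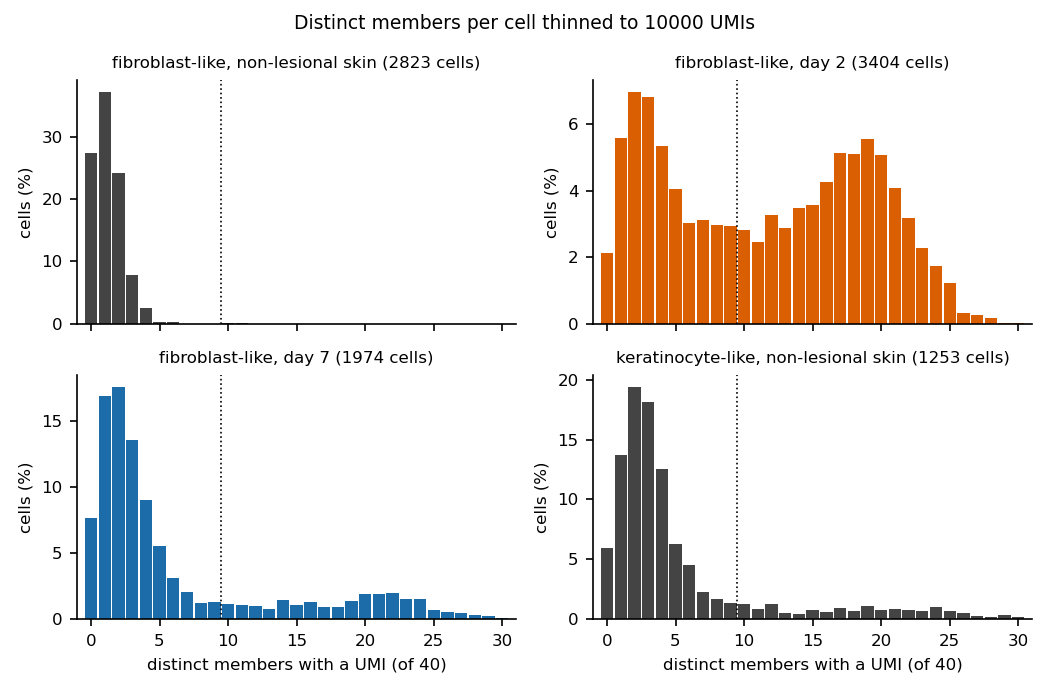
Number of the 40 genes with a UMI per cell after thinning to 10000 UMIs (x axis), as % of cells (y axis, own scale in each panel), for fibroblast-like cells of the 3 libraries and keratinocyte-like cells of non-lesional skin. The dotted line marks 10 genes; 57.0% of day 2 fibroblast-like cells lie to its right, against 22.0% at day 7, 0.390% in non-lesional skin and 14.3% of keratinocyte-like cells.

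In the wound libraries the S phase and G2/M genes moved up together in fibroblast-like cells. At day 2, 37 of the 40 genes were at least 2-fold higher than in non-lesional skin, where 11.0% of all 16114 genes measured were. Folds are of CPM in the summed cells of a class with 5 CPM added to both sides, which understates the difference of genes that are low in 1 library. All 20 G2/M genes passed, with a median log2 fold of 3.30, and 17 of 20 S phase genes, with a median of 2.26, while the median of all genes was 0.05. The 3 that did not pass were E2f1 at a log2 fold of 0.99, Slbp at 0.42 and Ung at -0.04. At day 7, 35 of the 40 were at least 2-fold higher than in non-lesional skin, against 8.21% of all genes. There the G2/M median was 2.80 and the S phase median 1.46, and Pcna (0.93), Cdc6 (0.55), E2f1, Slbp and Ung were under 2-fold. The comparisons share the non-lesional library and so are not independent.

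Among the S phase genes, the subunits of the replicative helicase were low in non-lesional skin. Mcm5 was at 1.16, 62.6 and 21.3 CPM in non-lesional skin, day 2 and day 7, a ratio of 54.0 (42.9 to 68.9) at day 2. Mcm3 was at 3.34, 63.4 and 24.3 CPM. Mcm2 was at 1.54, 43.5 and 22.4 CPM, so that all 3 were highest at day 2 and lowest in non-lesional skin. Mcm4, Mcm6 and Mcm7 had the same order, from 4.23 to 7.00 CPM in non-lesional skin to 47.4 to 54.1 CPM at day 2. Cdc6, which loads the helicase at origins, was at 2.54, 17.3 and 6.08 CPM. Cdc45 and Gins2, which complete the active helicase, reached 20.9 and 24.7 CPM at day 2 from 0.684 and 2.85 CPM.

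Genes that feed and clamp the replication fork covered a wide range. 2810417H13Rik, which encodes a factor bound to the PCNA clamp, was at 0.843, 148 and 101 CPM, the largest S phase difference at day 2 (log2 fold 4.72) and at day 7 (4.18). Pcna, the clamp itself, was at 25.7, 94.0 and 53.5 CPM. Its level in non-lesional skin was well above that of most other S phase genes there, and Pcna also serves DNA repair. Rrm1, the large subunit of ribonucleotide reductase, was at 14.7, 98.0 and 55.9 CPM. Rrm2, its S phase subunit, was at 3.09, 61.7 and 29.3 CPM, and so had the lower level at rest. Tyms, which makes thymidylate, was at 8.26, 62.2 and 34.7 CPM. Uhrf1, which carries DNA methylation over to the new strand, was at 0.763, 43.6 and 19.7 CPM, a log2 fold of 3.08 at day 2.

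A few listed S phase genes hardly followed the others. Slbp, which binds the stem loop of histone mRNA, was at 47.1, 64.6 and 52.5 CPM. Ung, which removes uracil from DNA, was at 12.4, 11.9 and 9.22 CPM, lowest at day 7. E2f1, a factor that drives S phase genes, was at 12.6, 29.8 and 20.1 CPM. Slbp, Pcna, Rrm1, E2f1 and Ung were the 5 highest S phase genes in non-lesional skin, where the S phase sum was 156 CPM. Ccne1 and Ccne2, the E cyclins that start S phase with Cdk2, reached 17.9 and 19.3 CPM at day 2 from 2.00 and 0.525 CPM, and so did follow the others.

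The G2/M genes were nearly silent in fibroblast-like cells of non-lesional skin, where the 20 together came to 15.9 CPM, against 1274 CPM at day 2 and 959 CPM at day 7. Ube2c, the ubiquitin-conjugating enzyme of the anaphase-promoting complex, was at 0.604, 151 and 120 CPM. Its log2 folds against non-lesional skin, 4.80 and 4.48, were the largest of the 40 at both days. Top2a, the topoisomerase that untangles sister chromosomes, was at 2.31, 159 and 116 CPM. Birc5, survivin of the chromosomal passenger complex, was at 1.05, 128 and 82.6 CPM. Mki67, which coats mitotic chromosomes, was at 1.21, 103 and 82.9 CPM, and each of these 4 had its highest level at day 2.

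The mitotic kinases and their partners had the same order at lower levels. Cdk1, the mitotic kinase, was at 0.668, 90.0 and 59.2 CPM. Its cyclins Ccnb1, Ccnb2 and Ccna2 reached 38.0 to 52.3 CPM at day 2 from 0.318 to 0.557 CPM. Plk1, Aurka and Aurkb, kinases of spindle and division, reached 23.2 to 36.1 CPM from 0.191 to 0.366 CPM. Bub1 and Bub1b, of the spindle checkpoint, had the smallest G2/M log2 folds at day 2 together with Nusap1, at 2.17, 2.00 and 2.29. The 5 CPM added to both sides weighs on such low genes: the plain ratios were 142 for Bub1, 46.9 for Bub1b and 15.3 for Nusap1. Bub1 was thus not among the least changed by plain ratio. It rested on only 8 UMIs in non-lesional skin, and its ratio spans 71.8 to 329. Cenpa and Cenpf of the centromere, Prc1, Tpx2 and Kif11 of the spindle and Cdc20, the activator of the anaphase-promoting complex, had log2 folds of 2.59 to 3.77 at day 2.

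**Figure D3:**
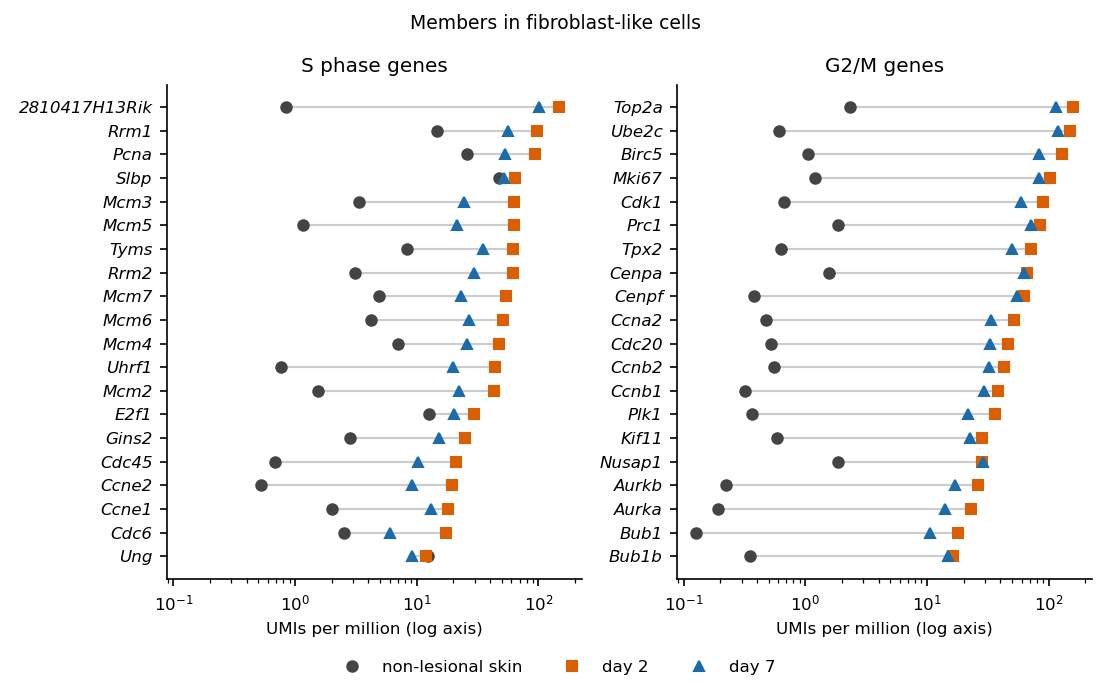
Level of each of the 40 genes in fibroblast-like cells (x axis, CPM, log axis), 1 row per gene ordered by its day 2 level, with non-lesional skin as grey circles, day 2 as orange squares and day 7 as blue triangles. Nearly all G2/M genes lie near 1 or below in non-lesional skin, whereas Slbp, Pcna, Rrm1, E2f1 and Ung are above 10 there.

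From day 2 to day 7 the S phase genes went down further than the G2/M genes. All 20 S phase genes were lower at day 7, with a median log2 fold of -0.77, and 19 of 20 G2/M genes, with a median of -0.40. None of the 40 was at least 2-fold higher. With 5 CPM added to both sides, 4 were at least 2-fold lower, against 1.61% of all 16390 genes measured. They were Mcm5 with a day 7 to day 2 ratio of 0.340 (0.322 to 0.360), Mcm3 with 0.383, Cdc6 with 0.352 and Mcm7 with 0.423. By the plain ratio 8 genes lay under 0.5, all of them S phase genes, the others being Uhrf1 (0.452), Ccne2 (0.470), Rrm2 (0.475) and Cdc45 (0.493). The intervals of Ccne2 (0.429 to 0.514) and Cdc45 (0.452 to 0.536) reach past 0.5. The other 3 MCM subunits had ratios of 0.516 to 0.542. The smallest S phase differences were those of Ung (0.777), Slbp (0.813) and Ccne1 (0.736). Of the G2/M genes, Nusap1 of the spindle had a ratio of 1.00 (0.949 to 1.06), Cenpa 0.955, Bub1b 0.916 and Cenpf 0.876. The G2/M genes with the most negative log2 folds were Plk1 (-0.63), Birc5 (-0.60) and Bub1 (-0.57), at ratios of 0.599, 0.644 and 0.585. When cells were thinned to equal depth before summing, 10 of the 40 were at least 2-fold lower, and the medians were -0.98 and -0.66.

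**Figure D4:**
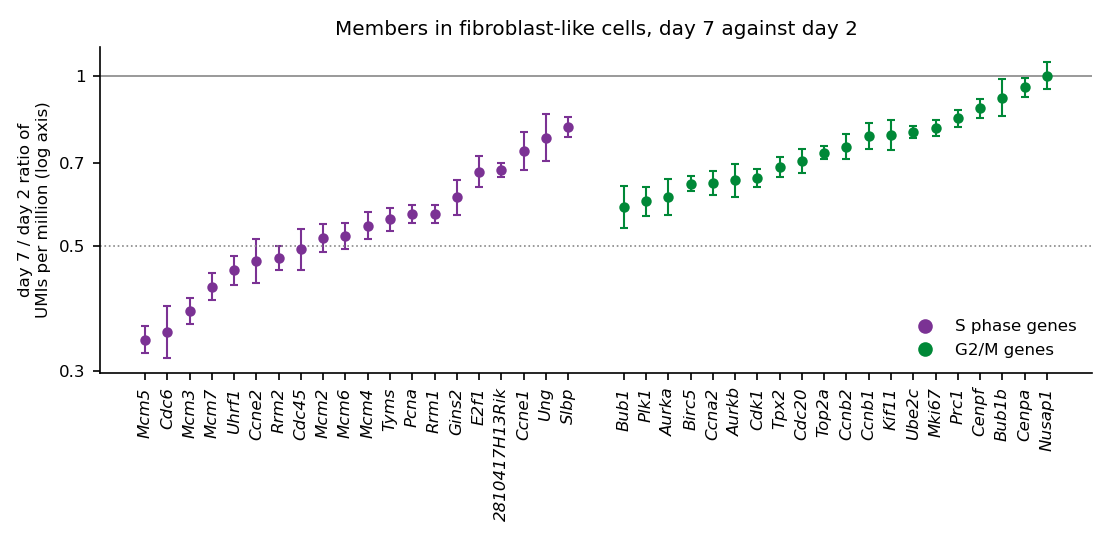
Ratio of the day 7 to the day 2 level in fibroblast-like cells (y axis, ratio of CPM, log axis) for the 20 S phase genes (purple) and 20 G2/M genes (green), with 95% counting intervals. The solid line is at 1 and the dotted line at 0.5; the S phase genes run from 0.340 for Mcm5 to 0.813 for Slbp and the G2/M genes from 0.585 for Bub1 to 1.00 for Nusap1.

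Summed over all fibroblast-like cells, the balance of the 2 lists was on the side of S phase in non-lesional skin and on that of G2/M in the wound libraries. For each G2/M UMI, fibroblast-like cells held 9.85 S phase UMIs in non-lesional skin (9.23 to 10.5) and 0.814 at day 2 (0.807 to 0.820). At day 7 the value was 0.598 (0.590 to 0.605). The first value rests on 997 G2/M UMIs in 6408 cells, and Slbp and Pcna gave 47.1 and 25.7 of its 156 S phase CPM. Within dividing cells alone, on the log2 scale, the balance was -0.60 in non-lesional skin, -0.63 at day 2 and -1.40 at day 7, so non-lesional skin and day 2 had nearly the same value. The value of non-lesional skin comes from 9 cells, of which 2 held 73.0% of these UMIs. Of the 1282 dividing fibroblast-like cells of day 2, 481 held more S phase than G2/M UMIs after thinning, or 37.5% (34.9 to 40.2%). At day 7 this was 89 of 327, or 27.2% (22.5 to 32.4%), and of the 9 cells in non-lesional skin it was 7. The call used the same 40 genes, so their levels and balance within dividing cells depend on it. In the dividing cells Mcm3 was at 85.1 CPM at day 2 and 54.8 CPM at day 7, while Ube2c was at 293 and 495 CPM. Slbp was at 77.1 and 77.3 CPM in them.

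Dividing and other cells of a library also differed in depth. Dividing fibroblast-like cells had a median of 32156 UMIs at day 2 against 24297 in the other fibroblast-like cells, and 39519 against 23769 at day 7. Their fibroblast markers were lower, at 29945 against 34010 CPM at day 2 and 53956 against 83638 CPM at day 7. Of 49 further mitosis genes that took no part in the call, 37 were at least 2-fold higher in dividing than in other cells at day 2 and 48 at day 7, with median log2 folds of 1.18 and 2.51, against 0.768% and 2.31% of all genes. Of 42 further replication genes, 2 were at day 2 and 33 at day 7, with medians of 0.65 and 1.28. The cells not called dividing at day 2 held a mean of 0.457 S phase and 0.339 G2/M UMIs per 1000, above the 0.263 and 0.142 of day 7. The cause of this difference was not tested.

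Other genes of the cycle were compared between libraries as lists. Of 42 further replication genes, 40 were at least 2-fold higher in day 2 fibroblast-like cells than in non-lesional skin and 20 at day 7, against 11.0% and 8.21% of all genes, and the median log2 folds were 1.70 and 0.98. The furthest at day 2 were Hells, a chromatin remodeller (2.47 to 68.4 CPM), Gmnn, geminin, which blocks a new round of licensing (1.07 to 42.5 CPM), and Lig1, the DNA ligase of the fork (4.17 to 53.5 CPM). Between the wound libraries, 4 had a level at day 7 that was 2-fold lower or more, against 1.61% of all genes, among them Mcm10 and Cdt1, at log2 folds of -1.16 and -1.09. Cdt1 loads the MCM helicase with Cdc6. Of 49 further mitosis genes, 46 exceeded non-lesional skin by 2-fold or more at day 2 and 44 at day 7, against the same 11.0% and 8.21%, with median log2 folds of 2.22 and 1.86, led at day 2 by Cdca3, Hmmr and Racgap1 at 3.66, 3.41 and 3.33. At day 7 Cenpe, a kinesin of the centromere, led with 3.02. Between day 2 and day 7 none of the 49 was 2-fold lower, and Kif22, Mybl2 and Ckap2 each had a log2 fold of -0.78.

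In the lists of G1 genes and of E2F and pocket protein genes, most members were less than 2-fold above non-lesional skin. The share of members past 2-fold still exceeded that of all genes, which was 11.0% at day 2 and 8.21% at day 7. With lists this short, the excess rests on a few genes. Of 8 G1 cyclins, kinases and Myc genes, 2 passed 2-fold at day 2, Cdk4 (53.0 to 160 CPM) and Cdk2 (7.98 to 21.2 CPM), while Ccnd1, cyclin D1, was lower at 36.9 against 66.4 CPM. At day 7 Cdk4 was at 164 CPM and Ccnd1 at 30.6 CPM, and Cdk6 was higher than at day 2, at 24.9 against 9.20 CPM. Of 14 E2F and pocket protein genes, 3 passed 2-fold at day 2, E2f3 (3.99 to 18.6 CPM), E2f8 (0.143 to 8.30 CPM) and Rbl1 (4.50 to 16.1 CPM). E2f3 and E2f8 were also at least 2-fold higher at day 7, and from day 2 to day 7 the largest shifts were those of Tfdp2 (0.66), E2f7 (-0.65) and Rbl2 (0.54).

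Of 15 listed brakes of the cycle, 8 were at least 2-fold lower at day 2 compared with non-lesional skin, against 6.29% of all genes, and none was 2-fold higher, with a median log2 fold of -1.0. Cdkn1c and Cdkn1b, inhibitors of cyclin-dependent kinases, were at 11.5 against 67.4 CPM and at 27.6 against 122 CPM. Gas1, a growth arrest gene, was at 107 against 346 CPM. Of the other 7, Gadd45a and Ccng1, named after their values were seen, lay above non-lesional skin at log2 folds of 0.79 and 0.61, and 5 lay between -0.79 and -0.12. At day 7 Cdkn1c stood at 200 CPM, above both other libraries, and Gas1 was back at 366 CPM. Cdkn2b, p15, was at 6.74, 3.35 and 28.8 CPM, and Cdkn1a, p21, at 371, 182 and 91.3 CPM, so the inhibitors did not move as 1 group. From day 2 to day 7, 5 of the 15 were at least 2-fold higher, against 3.35% of all genes. Early response genes that tissue digestion can induce also differed: 6 of 10 at day 2 and 4 at day 7 lay at least 2-fold below non-lesional skin, as did 3.99% of all genes at day 7, led by Fosb (266 against 1361 CPM), Atf3, Fos and Hspa1a at day 2 and by Dusp1 (559 against 2358 CPM), Fosb and Junb at day 7. From day 2 to day 7 the largest of these shifts were those of Atf3 (0.98), Jun (0.97) and Dusp1 (-0.74). Their part in the levels of the cycle genes was not tested.

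Division was unevenly spread among fibroblast-like clusters of day 7. In the largest, led by Tnn and Prss35, 279 of 1432 cells were dividing, or 19.5% (17.5 to 21.6%). In the cluster led by Mgp and H19, which also has Cdkn1c and Dlk1 among its 10 leading genes, 9 of 526 were, or 1.71% (0.785 to 3.22%). In the cluster led by Wif1 and Gldn none of 261 cells was. Their median depths of 31660, 23020 and 5350 UMIs were equalised by the thinning. The 2 day 2 clusters were closer, at 33.9% (32.0 to 35.9%) in the cluster led by Cxcl14 and Saa3 and 29.8% (27.6 to 32.0%) in that led by Thbd and Ereg. The histone gene Hist1h2ap was among the 10 leading genes of the first.

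The cluster led by Coch and Cilp held cells of both non-lesional skin and day 7. In it 7 of 618 cells of non-lesional skin were dividing, or 1.13% (0.457 to 2.32%), and 38 of 178 at day 7, or 21.3% (15.6 to 28.1%). These 7 were most of the 9 dividing fibroblast-like cells of non-lesional skin. The other clusters of that library, led by Wfdc12, Smpd3, Myoc and C6, held 1 of 2228, 1 of 1675, 0 of 994 and 0 of 764 dividing cells. Few day 7 cells lay in these clusters, where 1 of 42, 0 of 4, 0 of 41 and 0 of 22 were dividing. Otherwise most fibroblast-like cells of the 3 libraries lay in different clusters, so the class values above compare different cell states as well as different times.

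**Figure D5:**
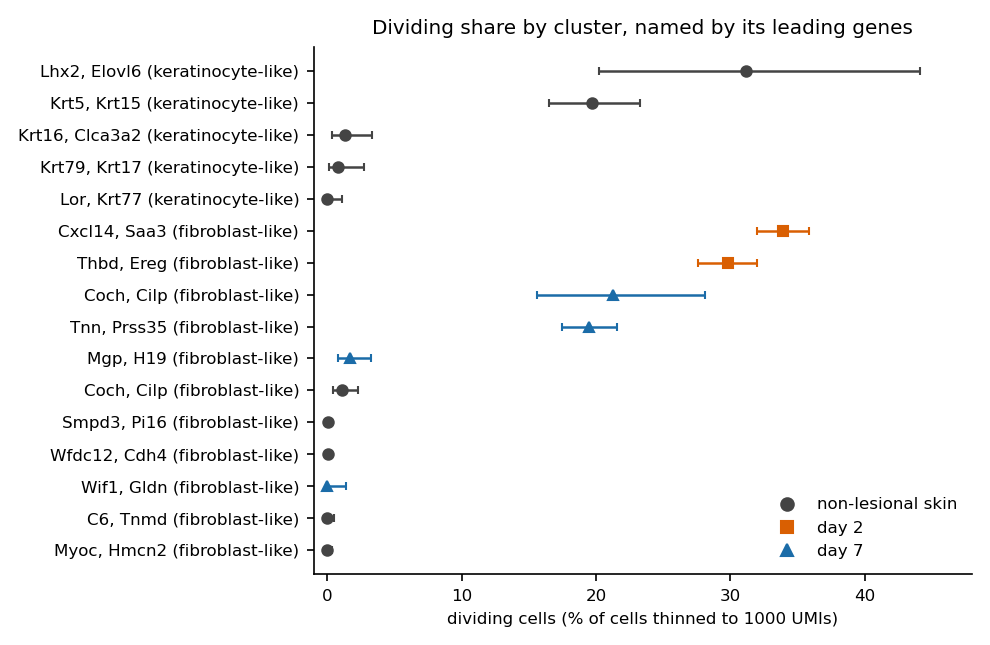
Share of dividing cells (x axis, % of cells thinned to 1000 UMIs) in each fibroblast-like and keratinocyte-like cluster with at least 50 cells in a library; rows name the leading genes, and colours and shapes mark non-lesional skin (grey circles), day 2 (orange squares) and day 7 (blue triangles). Bars are 95% Clopper-Pearson intervals; the Coch, Cilp cluster is at 1.13% in non-lesional skin and 21.3% at day 7.

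Over all cells the dividing share was 2.16% in non-lesional skin (198 of 9179), 22.7% at day 2 (1334 of 5877) and 11.2% at day 7 (501 of 4461). Which cells divided differed between the libraries. Of the 198 dividing cells of non-lesional skin, 68.7% were keratinocyte-like, 17.2% T, NK or innate lymphoid-like and 7.58% dendritic-like. At day 2, 96.1% of 1334 were fibroblast-like. At day 7, of 501 dividing cells 65.3% were fibroblast-like, 11.6% of the lymphoid class, 6.19% of the pericyte class and 4.19% of the Schwann class. These shares also depend on how many cells of each class came through digestion. The part of widely seen genes such as Slbp and Cenpa in the lymphoid calls of non-lesional skin was not tested.

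Keratinocyte-like cells of non-lesional skin divided mainly in the cluster led by Krt5 and that led by Lhx2. In all, 136 of 1513 were dividing, or 8.99% (7.60 to 10.5%), and 92 of the 136 held more G2/M than S phase UMIs. The cluster led by the basal keratins Krt5 and Krt15 had 110 of 558 dividing cells, or 19.7%, and that led by Lhx2, a hair follicle stem cell factor, and Elovl6 had 20 of 64, or 31.2% (20.2 to 44.1%). The clusters led by Lor and by Krt16, of the differentiating and suprabasal layers, had 0 of 326 and 4 of 306. The cluster led by Krt79 and Krt17 had 2 of 259, or 0.772%. At day 7, 17 of 84 keratinocyte-like cells were dividing, or 20.2% (12.3 to 30.4%), with 13 of the 17 in the Lhx2 cluster. That cluster gave 32 of the 84 cells at day 7 but 64 of 1513 in non-lesional skin, so the class differs in makeup. Only 3 of the 40 genes had a level at day 7 that was 2-fold higher or more, against 4.17% of all genes, Mcm2, Ube2c and 2810417H13Rik (123 against 43.5 CPM). Ube2c, the highest G2/M gene at day 7, was at 144 against 69.2 CPM, and Slbp was the highest S phase gene of non-lesional skin, at 81.3 CPM. Ccne1 was lower at day 7, at 2.04 against 13.6 CPM.

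Pericyte or smooth muscle-like cells went from none dividing of 233 in non-lesional skin, which allows a share of up to 1.29%, to 31 of 185 at day 7, or 16.8% (11.7 to 22.9%). Both libraries' cells came from 1 cluster, led by Rgs5. At day 7, 34 of the 40 genes were at least 2-fold higher than in non-lesional skin, against 17.3% of all genes measured. Top2a had 555 UMIs at day 7, or 185 CPM, and none in non-lesional skin, where 3 UMIs would be 2.26 CPM, so it was at least 82.0-fold higher. Mki67, the highest G2/M gene, was at 191 against 1.5 CPM, with only 2 UMIs in non-lesional skin and a ratio of 127 (35.1 to 1054). 2810417H13Rik was at 168 CPM against none, at least 74.5-fold higher. Slbp, Pcna and Rrm1 did not follow, at 76.4 against 103, 66.7 against 70.7 and 58.0 against 55.7 CPM. The 20 G2/M genes summed to 1626 against 43.6 CPM, and the S phase UMIs per G2/M UMI were 0.426 (0.404 to 0.448) at day 7, the lowest balance of any class with at least 50 cells. Dividing cells had a median of 26063 UMIs against 11268 in the others. Their own markers were at 8960 against 12875 CPM and their fibroblast markers at 10653 against 16727 CPM, and the part of doublets was not tested.

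Schwann or melanocyte-like cells gave 1 dividing cell of 155 in non-lesional skin (0.645%) and 21 of 75 at day 7, or 28.0% (18.2 to 39.6%). The cluster led by the pigment genes Dct and Pmel gave 5 of the 155 cells in non-lesional skin, none of them dividing, and 36 of the 75 at day 7, 12 of them dividing, so the class differs in makeup between the libraries. At day 7, 36 of the 40 stood 2-fold or more above non-lesional skin, against 15.7% of all genes. Top2a was at 302 against 7.00 CPM and 2810417H13Rik at 213 against 3.50 CPM. The second had 2 UMIs in non-lesional skin and a ratio of 60.7 (16.6 to 505). The early response genes of digestion were lower at day 7 in this class too, in 9 of 10 genes against 11.3% of all genes, and their part was not tested.

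Dendritic-like cells had the opposite order to fibroblast-like cells. In non-lesional skin 15 of 114 were dividing, or 13.2% (7.56 to 20.8%), at day 2 6 of 523, or 1.15% (0.422 to 2.48%), and at day 7 17 of 319, or 5.33% (3.13 to 8.40%). The day 2 share overlaps the neutrophil-like background of 0.865%. The result depends on how the class is drawn: with at least 500 genes per cell, or with classes set cell by cell, under 50 cells of non-lesional skin were in the class and no order could be given. Shares at day 2 and day 7 were then 0.664% and 2.44%, or 0.833% and 3.48%. With classes set cell by cell, and at resolution 2, monocyte or macrophage-like cells also had their highest share in non-lesional skin and their lowest at day 2. The markers of the dendritic-like class summed to 1357 CPM in non-lesional skin, against 4581 and 4049 CPM at day 2 and day 7. In non-lesional skin they were at 908 CPM in dividing cells against 1477 CPM in the others, with median depths of 11515 against 5996 UMIs. At day 7 they were at 1668 against 4258 CPM, with 9955 against 6606 UMIs. The part of doublets was not tested. Within the cluster led by Cd74 and H2-Ab1, which held 113 of the 114 cells of non-lesional skin, the shares were 13.3%, 1.63% and 7.17%. In the cluster led by Ccl22 and Ccr7, genes of mature dendritic cells, 0 of 156 cells divided at day 2 and 1 of 96 at day 7. Of 32 genes of the 40 with enough UMIs, 20 were at least 2-fold lower at day 2 than in non-lesional skin, against 6.34% of all genes. Mki67, the highest G2/M gene, was at 162, 38.9 and 89.8 CPM in non-lesional skin, day 2 and day 7. Slbp, the highest S phase gene of non-lesional skin, was at 95.2, 68.6 and 64.2 CPM. 2810417H13Rik was at 71.7, 6.48 and 57.3 CPM. From day 2 to day 7, 9 of 38 genes were at least 2-fold higher, against 2.29% of all genes. S phase UMIs per G2/M UMI were 0.696, 1.5 and 1.04, and the dividing cells held more G2/M than S phase UMIs in 11 of 15 cells of non-lesional skin and in 3 of 17 at day 7.

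Lymphoid cells, the class of T, NK or innate lymphoid-like cells, had similar dividing shares in the 3 libraries by the rule of at least 3 genes. The counts were 34 of 427 (7.96%, interval 5.58 to 10.9%) in non-lesional skin, 9 of 115 (7.83%, 3.64 to 14.3%) at day 2 and 58 of 601 (9.65%, 7.41 to 12.3%) at day 7. These intervals overlap, and the order of the libraries changed between settings. The genes behind the calls differed, though. Slbp, Cenpa and Pcna were seen in 25.1%, 15.9% and 12.2% of thinned cells of non-lesional skin, against 14.5%, 10.6% and 7.49% at day 7. Mki67 and Top2a were seen in 2.81% and 3.75% in non-lesional skin, against 7.65% and 8.49% at day 7. How many cells were called through such widely seen genes without dividing was not tested. At day 2, where the median depth was 1166 UMIs, 63 of 178 cells were too shallow to be thinned, so that share rests on the deeper ones. At day 7 the cluster led by Ctla4 and Icos, with Foxp3 of regulatory T cells among its leading genes, had 32 of 275 dividing cells, or 11.6% (8.10 to 16.0%). The cluster led by Il17a and Cd69 had 5.69% (3.29 to 9.08%). In the latter, the shares in non-lesional skin and at day 2 were 7.89% and 7.69%. In the summed cells 17 of the 40 genes exceeded their level in non-lesional skin by 2-fold or more at day 7, against 14.0% of all genes. Mki67 was at 80.9, 40.4 and 237 CPM in the 3 libraries, 2810417H13Rik at 43.2, 33.0 and 134 CPM, and Slbp, the highest S phase gene, at 282, 173 and 172 CPM. S phase UMIs per G2/M UMI were 1.07, 1.27 and 0.779. The fibroblast markers in the other cells of day 7 summed to 13858 CPM, against 3097 CPM in the dividing ones, and the part of free RNA was not tested.

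The remaining classes held few dividing cells. Monocyte or macrophage-like cells had 4 of 277 at day 2 (1.44%, 0.395 to 3.66%) and 3 of 263 at day 7 (1.14%, 0.236 to 3.30%), which overlaps the neutrophil-like background. In them Mki67 was at 32.5 CPM at day 2 and 69.7 CPM at day 7, and Pcna, the highest S phase gene, at 121 and 107 CPM. Blood endothelial-like cells had 9 of 98 at day 7 (9.18%, 4.29 to 16.7%), and under 50 cells in either other library. Lymphatic endothelial-like cells had 7 of 49 at day 7. Mast or basophil-like cells had 5 of 30 at day 2 and 4 of 24 at day 7. Erythroid-like cells had 12 of 73 at day 2 (16.4%, 8.79 to 27.0%) and 4 of 91 at day 7 (4.4%, 1.21 to 10.9%). The 12 had a median of 32736 UMIs, near that of dividing fibroblast-like cells, against 6119 in the other erythroid-like cells. Their fibroblast markers summed to 27044 CPM against 25950 CPM, both near the 32496 CPM of fibroblast-like cells at day 2. Erythroid markers were at 46945 CPM in the 12 against 106710 CPM in the others, and the part of doublets was not tested. In this class, Ube2c, the highest G2/M gene, was at 160 and 73.7 CPM and 2810417H13Rik, the highest S phase gene, at 151 and 62.2 CPM.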

How the data were processed

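Single-cell RNA was counted in 3 libraries, 1 per group. Per the submitters' processing notes Cell Ranger 3.0.2, Seurat 3.0 and mm10 were used, while the header of the deposited matrices names cellranger 5.0.0. The deposited values are raw counts of UMIs per gene and barcode. Barcodes with fewer than 200 genes, over 10% of mitochondrial UMIs or a high Scrublet score (the top 0.8% per 1000 barcodes) were removed. Cells were clustered with scanpy 1.11.5 and leidenalg 0.10.2 on 2000 variable genes, 30 components and 20 neighbours at resolution 1, without cell cycle and histone genes. Classes came from fixed marker lists, and the scoring rule was settled after the clusters were seen.

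Shares have Clopper-Pearson intervals and ratios exact conditional binomial intervals (scipy 1.17.1), at 95%. A count of 0 was given a limit of 3 counts. Class sums were scaled to CPM, and genes needed 10 UMIs in a pair of libraries. Shares and balances are given for classes with at least 50 thinned cells, and counts alone for smaller ones. The scripts were tested on simulated data. TMM factors (edgeR 4.0.16) were used only as an alternative.

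Named genes were all 40, with values for the 3 highest of each list and the 3 largest and smallest log2 folds in each fibroblast-like pair, the highest of each list in other classes, and the 3 largest shifts of each further list. Levels of other genes of the 40 are given as description. The 40 genes and the lists were chosen with earlier results of these data known. Some results that rest on withheld items are not reported here.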

Additional observations from a re-analysis of the deposited data

Results flagged for a closer look

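The dividing share of dendritic-like cells went the opposite way to that of fibroblast-like cells in both steps. From non-lesional skin to day 2 it changed by -12.0 percentage points (13.2% to 1.15%), while the fibroblast-like share changed by 31.8 points. From day 2 to day 7 it changed by 4.18 points (1.15% to 5.33%), while the fibroblast-like share changed by -19.0 points. With 1 library in each group these differences were not tested. With at least 500 genes per cell or with classes set cell by cell, the class held under 50 cells in non-lesional skin, so the first difference could not be given. In non-lesional skin and at day 7, the dividing cells of the class had lower dendritic markers than its other cells.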

How the results depend on the processing

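No paired analysis was possible because each group is 1 library. The order of the fibroblast-like dividing shares, day 2 above day 7 above non-lesional skin, held in each setting run, but the shares moved with the depth and the number of genes asked for. For non-lesional skin, day 2 and day 7 they were 0.0468%, 12.2% and 6.83% at 500 UMIs and 0.688%, 52.6% and 21% at 2000 UMIs. With at least 2 genes they were 1.38%, 46.7% and 18.9%, and with at least 4 genes 0.0477%, 20.1% and 9.04%. At 10000 UMIs with at least 10 genes, added after seeing the data, they were 0.390%, 57.0% and 22.0%. At day 7 the share was 15.2% with doublets kept, 14.7% with at least 500 genes per cell and 11.0% with no mitochondrial limit. The log2 balance of S phase to G2/M UMIs in fibroblast-like cells, 3.30, -0.30 and -0.74, was 3.79, -0.22 and -0.53 after thinning and 3.01, -0.33 and -0.83 without the highest gene of each list. In dividing cells alone it was -0.60, -0.63 and -1.40, the first from 9 cells. With doublets kept it was 2.91 in non-lesional skin and -0.31 at day 2, with no mitochondrial limit 3.42 and -0.32, and with at least 500 genes -0.31 at day 2. The genes at least 2-fold lower at day 7 than at day 2, 4 as reported, were 10 with thinned sums, 7 with 1 CPM added and 7 when scaled by the median of ratios. TMM and median-of-ratios scaling moved the median of all genes at day 7 against non-lesional skin from 0.14 to 0.02 and 0.01. The log2 balance changed sign for neutrophil-like cells at day 2 without the highest genes (-0.01). With doublets kept it did so for monocyte or macrophage-like cells at day 7 (-0.19), dendritic-like cells at day 2 (-0.06) and the lymphoid class at day 2 (-0.04). With classes set per cell it was -0.01 for monocyte or macrophage-like cells at day 7. For erythroid-like cells at day 7 it was -0.36 with no mitochondrial limit and -0.32 after thinning. The cause of these changes was not tested. Depth limits the shares: at 1000 UMIs many dividing cells show under 3 of the 40 genes.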
